A study of Mus musculus with 6 samples.

Results

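The genes described here are members of the BCL-2 family other than the classic targets of the tumour suppressor p53: the survival genes Bcl2, Bcl2l1 and Mcl1, and the death-promoting genes Bcl2l11, Bak1, Bid, Bad, Bik and Bnip3l. They were taken by symbol from the array annotation, with every probe set (a group of short probes read as 1 value) that carries a member's symbol and no other. Of the 9 genes, 8 were reported in this way, among 12393 genes in all, by 25 of the 22626 probe sets that are not array controls. Bnip3l had no such probe set, because all 3 that carry its symbol also carry that of a pseudogene, and it is not described further.

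The RNA came from sorted mouse CD4+YFP+ cells of C57BL/6 mice, labelled as Treg, the regulatory subset that depends on the transcription factor Foxp3. The 3 control samples have B6_WT titles and the genotype Foxp3cre, a Cre recombinase driven from the Foxp3 gene. The 3 others have USP7 titles: the series text describes them as fl-Usp7/Foxp3cre, a loss of the deubiquitinase Usp7 limited to Foxp3-expressing cells, whereas their genotype field reads fl-HDAC11/Foxp3cre. They are called USP7-titled below. Both groups carry Foxp3cre. The labels give no age and do not say that the samples came from separate animals, so a p-value here reflects how these samples vary, and that variation may be technical.

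BCL-2 family proteins decide whether a cell keeps its mitochondria intact or dies by the intrinsic route of apoptosis. The survival proteins hold the pore-forming effectors Bak and Bax in check at the outer mitochondrial membrane, and the BH3-only proteins, among them Bim (encoded by Bcl2l11), Bid, Bad and Bik, activate the effectors or occupy the groove of the survival proteins. In Treg, Mcl-1 and Bim are known to act against each other in setting how long the cells live.

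The upstream sequences of Bcl2, Mcl1, Bak1 and Bid are shown because each of these genes changed by all of its probe sets and has a single start site in the RefSeq promoters used here; the first pair fell and the second rose. Each line gives the 250 bases before the start site, 5' to 3' on the gene's own strand, with GC boxes (GGGCGG on either strand) in capitals.
Bcl2 (GRCm38.p6, chr1:106714291-106714540, minus strand): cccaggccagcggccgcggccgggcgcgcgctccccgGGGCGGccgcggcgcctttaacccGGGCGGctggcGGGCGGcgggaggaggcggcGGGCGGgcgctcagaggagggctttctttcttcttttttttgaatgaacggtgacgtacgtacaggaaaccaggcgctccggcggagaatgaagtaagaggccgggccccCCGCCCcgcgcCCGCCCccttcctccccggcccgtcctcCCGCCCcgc
Mcl1 (GRCm38.p6, chr3:95658471-95658720, plus strand): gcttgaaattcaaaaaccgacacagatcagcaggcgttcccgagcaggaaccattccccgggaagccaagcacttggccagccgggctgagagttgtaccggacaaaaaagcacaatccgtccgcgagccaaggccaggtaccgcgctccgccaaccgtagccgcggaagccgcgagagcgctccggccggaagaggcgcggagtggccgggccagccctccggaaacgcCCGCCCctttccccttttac
Bak1 (GRCm38.p6, chr17:27028628-27028877, minus strand): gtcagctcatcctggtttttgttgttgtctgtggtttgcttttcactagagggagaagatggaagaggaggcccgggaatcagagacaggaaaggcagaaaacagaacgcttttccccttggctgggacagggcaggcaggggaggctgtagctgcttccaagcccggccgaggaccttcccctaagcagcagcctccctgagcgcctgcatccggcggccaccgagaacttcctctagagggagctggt
Bid (GRCm38.p6, chr6:120916825-120917074, minus strand): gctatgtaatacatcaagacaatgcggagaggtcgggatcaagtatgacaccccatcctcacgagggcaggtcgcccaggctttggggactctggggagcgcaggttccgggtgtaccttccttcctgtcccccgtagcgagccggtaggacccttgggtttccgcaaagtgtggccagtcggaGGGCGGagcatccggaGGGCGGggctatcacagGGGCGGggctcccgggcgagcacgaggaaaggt
The RefSeq promoters covered 7 of the 9 members in 11 windows, and Bik and Bnip3l were not matched. The Bcl2 window held 7 GC boxes, that of Mcl1 1, that of Bid 3 and that of Bak1 0. A GC box was in 6 of the 11 member windows, belonging to 5 genes, against 32.7% of all 32851 windows. G and C made up 74.8%, 64.4%, 58.4% and 63.6% of the Bcl2, Mcl1, Bak1 and Bid windows, against a median of 52.4% over all windows. Other motifs were searched on both strands of the 11 windows. The CCAAT box (CCAAT) was in 3, belonging to Bcl2l11 and Bad, against 33.8% of all windows. A forkhead site (GTAAACA) was in 1, belonging to Bcl2l11, against 3.17% of all. The TATA box (TATAAA, 12.4% of all windows), a STAT site (TTCNNNGAA, 7.02%), an AP-1 site (TGANTCA, 6.75%), an E-box (CACGTG, 6.02%) and the p53 half-site consensus (7.13%) were in 0 of the member windows. A match, or its absence, describes only the letters in these windows.

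The labels were checked first. Usp7 read 11.61 to 11.73 in the control group by its brighter probe set and 10.54 to 10.76 in the other, which is 49.6% of control (limma adjusted p = 2.04e-06). Hdac11 was dim in both groups and changed by -0.58 (SE 0.16, limma adjusted p = 0.019) by its brighter probe set, a call lost without control replicate 1 (-0.44, limma adjusted p = 0.0878) or USP7-titled replicate 2 (-0.50, limma adjusted p = 0.0645), and by -0.22 (limma adjusted p = 0.354) by the other. The first call was also lost under scaling to the array's hybridization spikes (limma adjusted p = 0.0539) and for the mean of both probe sets (0.0583). Foxp3, which defines the sorted cells, ran from 12.82 to 13.13 over the controls but only from 6.85 to 7.29 over the USP7-titled samples, or 1.59% of control, while Cd4 lay between 12.81 and 12.86 on every array. Controls had the female pattern of sex-linked transcripts (Xist 12.43 to 12.54) and the USP7-titled samples the male pattern (Xist 4.63 to 5.65), so that sex and group cannot be told apart. Marker genes of other cells and of T cells were counted by their brightest probe set at a limma adjusted p under 0.05. These counts are to be read against 16.9% higher and 15.6% lower over all genes. Of 14 measured myeloid markers 10 were higher and 0 lower, and their summed antilog signal ran from 1672 to 2208 over the controls and from 5680 to 6863 over the USP7-titled samples. Of 8 measured CD8 T and NK cell markers 3 were higher and 1 lower, and their summed antilog signal ran from 3523 to 3577 over the controls and from 12734 to 13538 over the USP7-titled samples. The higher ones are the granule genes Gzmb (3.29), Gzma (3.21) and Nkg7 (2.76), the lower one is the perforin gene Prf1 (-0.45), and the list's median change was -0.07, with Cd8a at 0.02, Cd8b1 at -0.23, Ncr1 at -0.15 and Klrk1 at -0.26, which did not pass. Of 11 measured T cell and Treg markers 0 were higher and 7 lower, and their summed antilog signal ran from 67679 to 69788 over the controls and from 55681 to 55814 over the USP7-titled samples. Foxp3, an X-linked gene read by 1 probe set, is among the lower ones and changed by -5.98. The other lower ones changed by -0.36 (Ctla4) to -0.11 (Cd3e). The list's median change was -0.12, and Cd4, Cd2, Cd3d and Cd3g did not pass. Of 7 measured B cell markers 1 were higher and 0 lower, and their summed antilog signal ran from 1295 to 1388 over the controls and from 1356 to 1478 over the USP7-titled samples. Of 6 measured erythroid markers 0 were higher and 1 lower. Their summed antilog signal ran from 798 to 844 over the controls and from 594 to 647 over the USP7-titled samples. The dimmest 40% of probe sets by mean level held 6 of the myeloid, 3 of the CD8 T and NK cell and 0 of the T cell and Treg markers. They also held 5 of the erythroid and 4 of the B cell markers, the higher one, Ms4a1, included. The lower erythroid marker, Gata1, is X-linked. The log2 values have no 0. The part of other cells or of sex in the changes below was not tested. In bulk RNA, fewer cells of a type and less RNA per cell cannot be told apart.

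Of the 25 member probe sets, 6 were higher and 13 lower in the USP7-titled samples and 6 did not pass the threshold, an adjusted p of 0.05 in limma. Over all probe sets 33.3% were called, 16.2% as higher and 17.1% as lower, so that a call by itself is common here. By gene, taking the brightest probe set by its mean of all 6 arrays, Bak1, Bid and Bad were higher, Bcl2, Mcl1, Bcl2l11 and Bik were lower and Bcl2l1 did not pass. Over all genes 32.4% were called, 16.9% as higher and 15.6% as lower. The groups did not overlap in 19 member probe sets, against 45.7% of all probe sets. Probe sets of 1 gene read transcripts of that same gene, and 6 of the 13 falls are those of Mcl1, so these are not counts of independent events. The median log2 change (USP7-titled minus control, as for every change below) was -0.30 over the member probe sets and -0.06 over all probe sets. By gene it was -0.22 over the members and -0.05 over all genes.

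**Figure D1:**
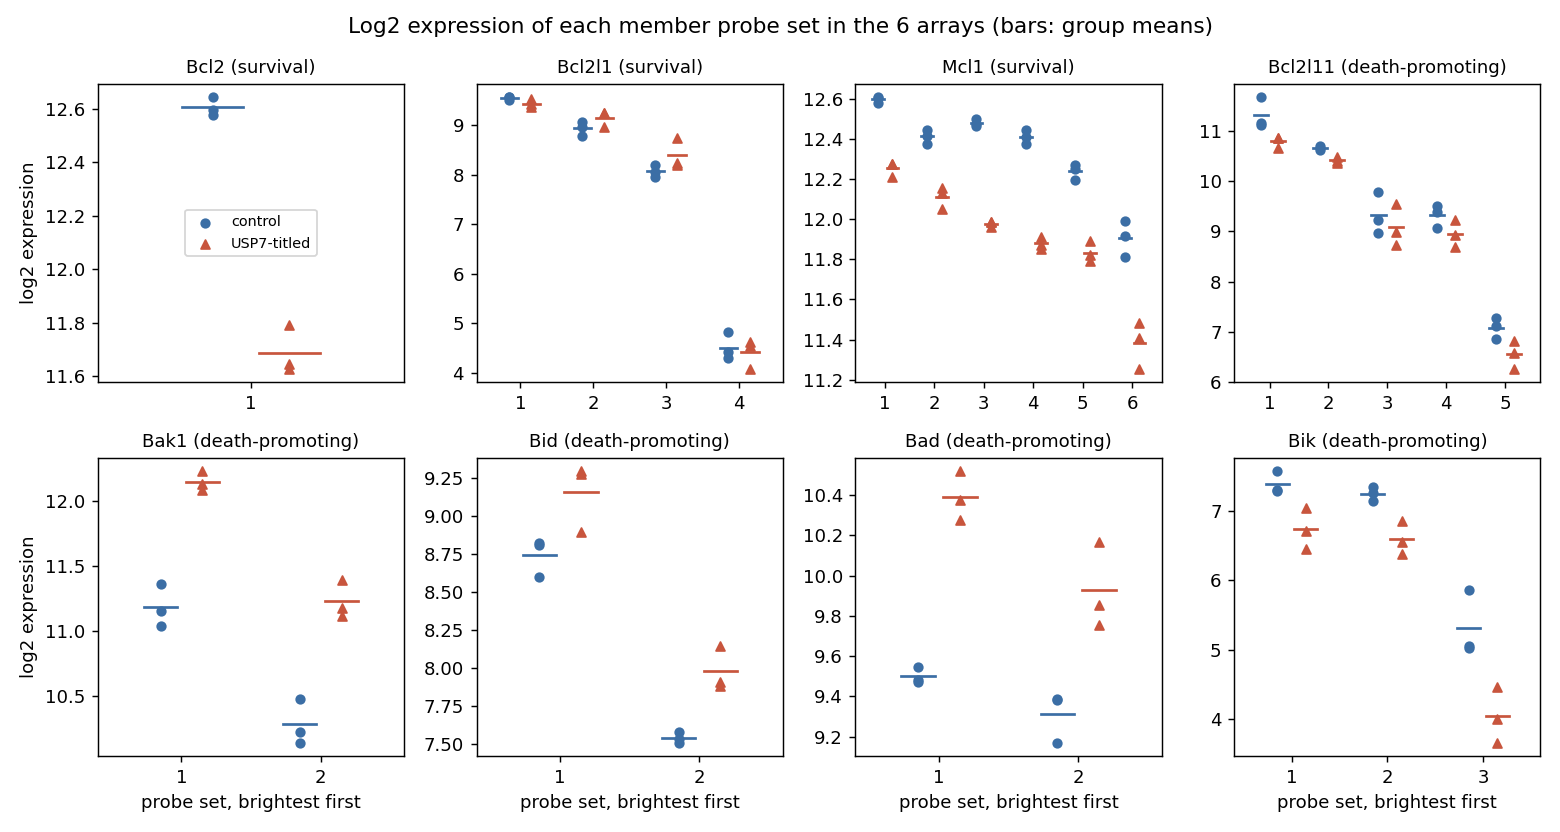
Log2 expression (vertical axis, scaled separately in each panel) of every probe set of the 8 measured members, numbered from the brightest (horizontal axis), with 1 point per array, blue circles for the 3 control and red triangles for the 3 USP7-titled samples, and bars at group means. The groups are apart for Bcl2, all 6 Mcl1 probe sets, Bak1, Bid, Bad and Bik, and overlap for all 4 Bcl2l1 probe sets and 2 of the 5 of Bcl2l11.

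Among the survival genes, Bcl2 fell the furthest. It encodes the founding member of the family, which guards the outer mitochondrial membrane. Its only probe set (1422938_at) read 12.64, 12.59 and 12.58 in the 3 controls and 11.64, 11.79 and 11.63 in the 3 USP7-titled samples. All USP7-titled values lie below the lowest control. Mean log2 level was 12.60 ± 0.03 in the first group and 11.69 ± 0.09 in the second (SD, n = 3 each), so the level was 1.89-fold lower: the change was -0.92 with SE 0.05 and 95% interval -1.03 to -0.81 (limma adjusted p = 4.04e-07). The fall was called in all 19 alternative settings, with changes from -0.97 to -0.76.

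Mcl1, which encodes a short-lived survival protein that must be made continuously, fell by all 6 of its probe sets. The brightest (1437527_x_at, where x marks probes that may also bind other sequences) read 12.61, 12.60 and 12.58 in the 3 controls and 12.21, 12.28 and 12.28 in the 3 USP7-titled samples. This is a change of -0.34 (SE 0.04), to 78.9% of control (limma adjusted p = 4.36e-05). The probe sets without that mark fell further. Of these, 1448503_at read 12.46, 12.50 and 12.47 against 11.99, 11.96 and 11.98 and changed by -0.50 (SE 0.04), 1416880_at changed by -0.53 (SE 0.04) and 1416881_at by -0.52 (SE 0.07). Their changes differed from that of the brightest by 0.157, 0.186 and 0.182, each with a two-sided exact permutation p of 0.1, the smallest that 3 against 3 arrays can give. Probe sets 1456243_x_at and 1456381_x_at changed by -0.30 and -0.41. In none of the 6 did the groups overlap. Scaled to the array's hybridization spikes (RNAs added in fixed amounts at the hybridization step), 1456243_x_at lost the call (-0.14, limma adjusted p = 0.139) and the other 5 did not.

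Bcl2l1, whose main product is the survival protein Bcl-xL, did not pass by any of its 4 probe sets, and their signs differed. The brightest (1420888_at) read 9.56, 9.56 and 9.50 in controls against 9.42, 9.53 and 9.36, a change of -0.11 (SE 0.09, 95% interval -0.31 to 0.09, limma adjusted p = 0.415). A fall as large as that of Bcl2 lies outside this interval. The next, 1426191_a_at, read 8.95, 9.07 and 8.78 against 9.24, 8.96 and 9.25, a change of 0.22 (SE 0.12, limma adjusted p = 0.201). Probe set 1420887_a_at read 8.05, 8.20 and 7.94 against 8.73, 8.24 and 8.20, with USP7-titled replicate 1 standing above the others, a change of 0.32 (SE 0.16, limma adjusted p = 0.144), which was 0.15 without that sample. The dim 1426050_at was at -0.09 (SE 0.18). The groups overlapped in all 4. Under spike scaling the pair with positive values passed as higher, 1426191_a_at at 0.38 (limma adjusted p = 0.0314) and 1420887_a_at at 0.48 (limma adjusted p = 0.0255), while the brightest turned to 0.05 and did not pass.

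Among the death-promoting genes, Bak1 rose by both of its probe sets. Its protein is an effector that forms the pore through which cytochrome c leaves the mitochondrion. The brighter probe set (1425716_s_at) read 11.03, 11.36 and 11.15 in the 3 controls and 12.23, 12.13 and 12.08 in the 3 USP7-titled samples, with every value of the second group above every value of the first. Mean log2 level was 11.18 ± 0.16 and 12.14 ± 0.07 (SD, n = 3 each), a 1.95-fold rise: the change was 0.96 with SE 0.08 and 95% interval 0.79 to 1.14 (limma adjusted p = 6.37e-06). The other probe set (1418991_at) read 10.22, 10.48 and 10.14 against 11.39, 11.11 and 11.18 and changed by 0.94 (SE 0.10), which differed from the first by 0.0203 (exact permutation p = 0.7). Both rises were called in every alternative setting.

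Bad, a BH3-only protein that binds Bcl-2 and Bcl-xL and is held back by survival kinases, also rose. Its brighter probe set (1416582_a_at) read 9.55, 9.47 and 9.48 in the 3 controls and 10.27, 10.37 and 10.52 in the 3 USP7-titled samples, a 1.85-fold rise (change 0.89, SE 0.09, limma adjusted p = 2.81e-05). The other (1416583_at) read 9.39, 9.38 and 9.17 against 9.76, 9.85 and 10.17, a 1.53-fold rise (change 0.61, SE 0.12, limma adjusted p = 0.00266). The groups were apart in both. The smaller change was 0.275 below the larger (exact permutation p = 0.1), and both were called in every alternative setting.

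Bid links death receptors and granzyme B to the mitochondrion, its protein being activated by cleavage. The brighter probe set (1417045_at) read 8.81, 8.60 and 8.82 in the 3 controls and 8.89, 9.28 and 9.29 in the 3 USP7-titled samples, a 1.33-fold rise (change 0.41, SE 0.13, limma adjusted p = 0.0334). The other (1448560_at) read 7.51, 7.54 and 7.58 against 8.15, 7.88 and 7.91 (change 0.44, SE 0.12, limma adjusted p = 0.018). The groups did not overlap in either, though in the brighter USP7-titled replicate 1 lay close to the highest control. The call on the brighter was lost with eBayes without trend (limma adjusted p = 0.0521) and without control replicate 1 (0.44, limma adjusted p = 0.0645), control replicate 2 (0.34, limma adjusted p = 0.125), USP7-titled replicate 2 (0.35, limma adjusted p = 0.107) or USP7-titled replicate 3 (0.34, limma adjusted p = 0.108). That on 1448560_at was lost without control replicate 1 (0.42, limma adjusted p = 0.0636), control replicate 2 (0.44, limma adjusted p = 0.0574) or USP7-titled replicate 1 (0.35, limma adjusted p = 0.0516).

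Bcl2l11 encodes Bim, the BH3-only protein that removes T cells deprived of cytokine, and its brightest probe set was lower. That probe set (1456005_a_at) read 11.17, 11.13 and 11.68 in the 3 controls and 10.67, 10.88 and 10.88 in the 3 USP7-titled samples, a change of -0.52 (SE 0.13) to 69.6% of control (limma adjusted p = 0.00963). Control replicate 3 is the highest; without it the change was -0.35 and was still called. Probe set 1435448_at read 10.62, 10.67 and 10.71 against 10.37, 10.40 and 10.49 (change -0.25, SE 0.07, limma adjusted p = 0.0194), and the dim 1435449_at changed by -0.53 (SE 0.17, limma adjusted p = 0.0317). Probe sets 1456006_at (-0.23, limma adjusted p = 0.481) and 1426334_a_at (-0.37, limma adjusted p = 0.0923) did not pass, and their groups overlapped. All 5 changes are negative, but that of 1456006_at is not settled by these arrays: it was -0.00354 without control replicate 2, -0.42 without control replicate 3, -0.05 without USP7-titled replicate 2 and -0.47 without USP7-titled replicate 3. Under spike scaling none of the 5 passed, with changes from -0.37 to -0.08 and limma adjusted p from 0.0995 to 0.84. The call on 1435448_at was also lost with eBayes without trend (limma adjusted p = 0.0557) and without control replicate 2 (-0.24, limma adjusted p = 0.057), control replicate 3 (-0.22, limma adjusted p = 0.0557), USP7-titled replicate 1 (-0.22, limma adjusted p = 0.054) or USP7-titled replicate 2 (-0.24, limma adjusted p = 0.0569). That on 1435449_at was lost with quantile normalization (-0.47, limma adjusted p = 0.0723) and without control replicate 2 (-0.51, limma adjusted p = 0.0962), control replicate 3 (-0.44, limma adjusted p = 0.115), USP7-titled replicate 1 (-0.39, limma adjusted p = 0.094) or USP7-titled replicate 2 (-0.55, limma adjusted p = 0.0598). In turn 1426334_a_at passed without control replicate 3 (-0.49, limma adjusted p = 0.041) or USP7-titled replicate 1 (-0.51, limma adjusted p = 0.0257).

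Bik, a BH3-only protein of the endoplasmic reticulum, was lower by all 3 of its probe sets, each within the dimmest 40% of probe sets by mean level. The brightest (1449836_x_at) read 7.57, 7.30 and 7.28 in the 3 controls and 7.05, 6.45 and 6.71 in the 3 USP7-titled samples (change -0.65, SE 0.17, limma adjusted p = 0.0119), and 1420363_at changed by -0.65 (SE 0.15, limma adjusted p = 0.00653). The dimmest (1420362_a_at) ran from 5.03 to 5.86 over the controls and from 3.66 up to 4.47 in the other group (change -1.27, SE 0.25, limma adjusted p = 0.00267). The groups did not overlap in any of the 3. The call on the brightest was lost without control replicate 1 (-0.56, limma adjusted p = 0.0587). Of all member probe sets 20 lay above the dimmest 40%; the others are these 3 and the dimmest of Bcl2l1 and Bcl2l11.

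**Figure D2:**
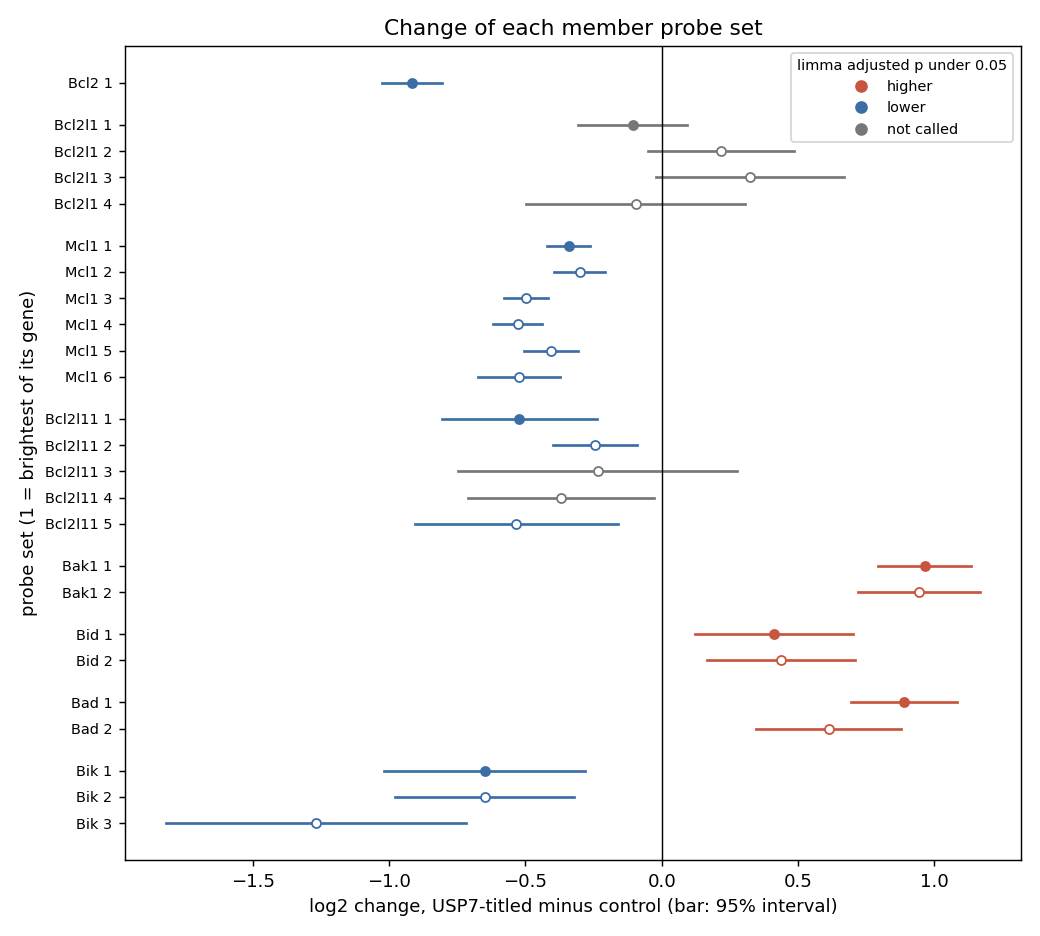
Log2 change, USP7-titled minus control, of each of the 25 member probe sets (horizontal axis) with its 95% interval, by gene with the brightest first (vertical axis; filled points are the brightest), red where called higher, blue where called lower and grey where not called. Bcl2, Mcl1, Bik and 3 of the 5 Bcl2l11 probe sets are blue, Bak1, Bid and Bad are red, and the intervals of the 4 grey Bcl2l1 probe sets include 0.

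The survival genes and the death-promoting genes did not each move as a block. Of the 11 survival probe sets 0 were higher, 7 lower and 4 not called, with a median change of -0.34. Of the 14 death-promoting probe sets 6 were higher, 6 lower and 2 not called, with a median of -0.24. Bcl2l11 and Bik supply 5 and 3 of these 14. By the brightest probe set of each gene, the median was 0.41 over the death-promoting genes and -0.34 over the survival genes. All 6 Mcl1 probe sets are among the 7 survival falls. By gene, 2 of 3 survival members were lower, and of 5 measured death-promoting members 3 were higher and 2 lower. Over all probe sets 16.2% were higher and 17.1% lower, and over all genes 16.9% and 15.6%. The effector Bak1 and the BH3-only genes Bad and Bid were higher in the same samples in which the BH3-only genes Bcl2l11 and Bik were lower. Members are not replicates, and no test was made over them.

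How many members rose or fell depends on the scaling of the arrays. Under spike scaling the median change of all probe sets moved from -0.06 to 0.10 and 72.7% of all calls were higher, against 48.7% as deposited. Over all 22626 probe sets 5157 were then higher and 1938 lower, and of the member probe sets 8 were higher and 9 lower. This scaling moves every change and their median by the same amount, so values relative to the median stay as deposited by construction. Relative to the median, Bcl2 was at -0.86, the Mcl1 probe sets at -0.47 to -0.25, the brighter Bak1 probe set at 1.02 and the Bad probe sets at 0.67 and 0.94. Quantile normalization gave 6 higher and 12 lower, where 3503 of all 22626 probe sets were higher and 3869 lower. Centring on array medians gave 6 and 13, where 3780 of all were higher and 3710 lower.

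**Figure D3:**
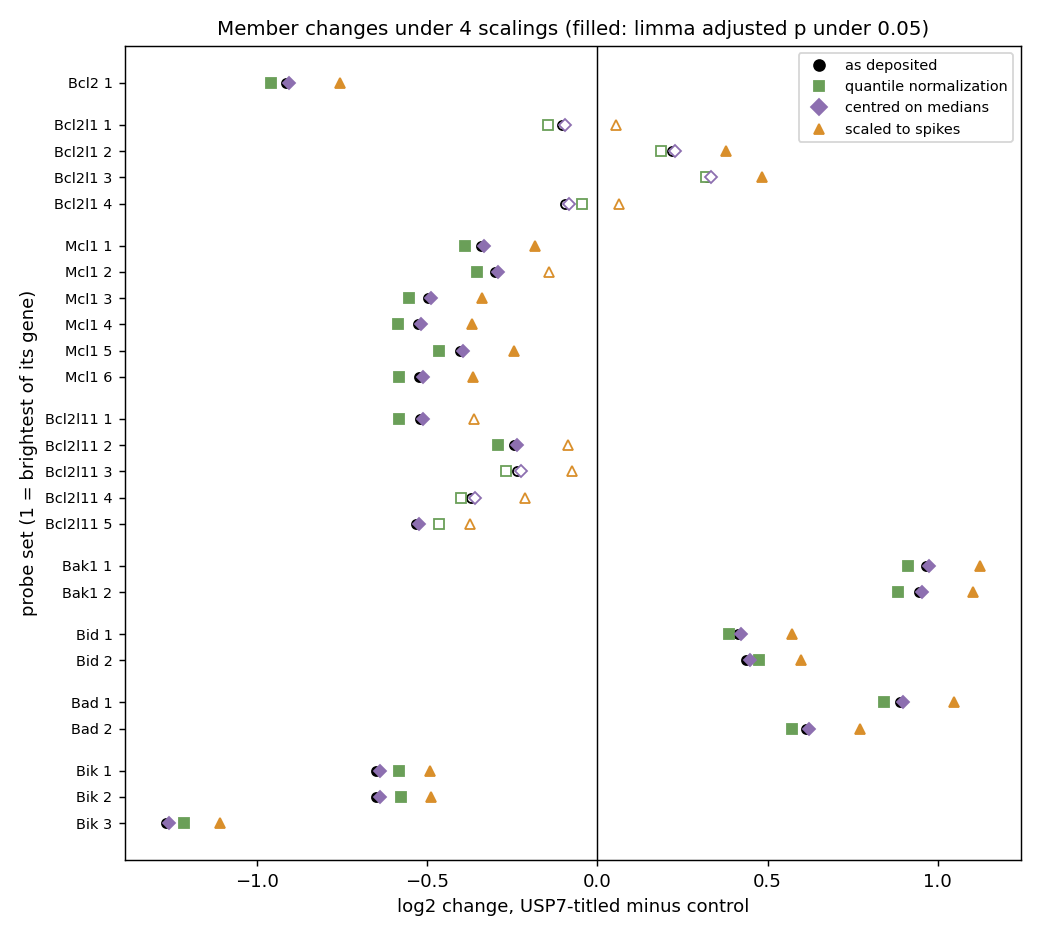
Log2 change of each member probe set (horizontal axis; vertical axis as genes with the brightest probe set first) under 4 scalings: as deposited, quantile normalized, centred on array medians and scaled to hybridization spikes, filled where limma's adjusted p is under 0.05. Bcl2, Bak1, Bid, Bad and Bik are filled under all 4, Bcl2l11 is open under spike scaling, and for Bcl2l1 the brightest and the dimmest change sign there.

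Other genes of the pathway came from 6 lists written from textbook knowledge, with 1 value per gene from its brightest probe set. Of 79 measured genes 14 were higher and 21 lower, where 16.9% higher and 15.6% lower over all genes is the share against which this count and those of the single lists below are to be read. Without control replicate 1 the 21 falls became 13, and under spike scaling 22 genes were higher and 10 lower. Spike scaling calls 5157 of all 22626 probe sets higher and 1938 lower, and its counts here and below are to be read against these. The median change of the 79 genes as deposited was -0.05.

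Among other BCL-2 family genes, 2 of 11 measured were higher and 1 lower (16.9% higher and 15.6% lower over all genes). Pmaip1, which encodes the BH3-only protein Noxa that binds Mcl-1, read 7.54, 7.27 and 6.99 in the 3 controls and 9.87, 10.06 and 9.93 in the 3 USP7-titled samples, a 6.46-fold rise (limma adjusted p = 3.44e-07). Bbc3, which encodes the BH3-only protein Puma, read 8.18, 7.98 and 8.07 against 8.69, 8.63 and 8.76 (change 0.62, SE 0.11). Both are known targets of p53. Bmf, a dim BH3-only gene, changed by -0.60 (SE 0.15). The effector Bax had no single-symbol probe set.

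Of 13 measured genes that act in cell death downstream of the mitochondrion, caspase regulators among them, 4 were higher and 2 lower (16.9% higher and 15.6% lower over all genes). Apaf1, the scaffold of the apoptosome, read 8.75, 8.42 and 8.84 in the 3 controls and 9.93, 10.24 and 10.06 in the 3 USP7-titled samples, a 2.65-fold rise (limma adjusted p = 1.62e-05), and both of its probe sets were higher. Cycs, which encodes cytochrome c, the factor that assembles that scaffold, changed by 0.70 (SE 0.08) and was higher by all 3 probe sets. Aifm1, an X-linked gene for a mitochondrial flavoprotein, changed by 0.59 (SE 0.11). Birc2, an inhibitor of apoptosis gene, was lower and read 10.37, 10.36 and 10.34 against 9.75, 9.60 and 9.80 (change -0.64, SE 0.08).

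Of 16 genes that control BCL-2 family proteins after translation, 2 were higher and 3 lower (16.9% higher and 15.6% lower over all genes). Usp9x, a deubiquitinase that stabilises Mcl-1, read 11.26, 11.15 and 11.13 in the 3 controls and 10.60, 10.52 and 10.57 in the 3 USP7-titled samples (change -0.62, SE 0.06), and was lower by 4 of its 7 probe sets. Huwe1, a ubiquitin ligase that marks Mcl-1 for destruction, changed by -0.58 (SE 0.06) and was lower by all 3. Both genes are X-linked, and the groups differ in sex pattern. The survival kinase gene Akt1, whose product phosphorylates Bad, changed by 0.53 (SE 0.10) and was higher by 1 of its 2 probe sets. Bag1, the gene of a co-chaperone that binds Bcl-2, changed by 0.37 (SE 0.06).

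Of 14 measured cytokine signalling genes and factors upstream of the family, 0 were higher and 10 lower (16.9% higher and 15.6% lower over all genes), with a median change of -0.28. Under spike scaling, where 72.7% of all probe set calls were higher, 5 were lower and 0 higher, with a median of -0.12. Il7r, the receptor for interleukin 7, a cytokine known to sustain Bcl2 in T cells, read 11.62, 11.57 and 11.66 in the 3 controls and 10.12, 10.28 and 10.52 in the 3 USP7-titled samples (change -1.31, SE 0.09), and its other probe set changed by -1.65. Bach2, the gene of a repressor that keeps T cells quiescent, changed by -1.07 (SE 0.13), the NF-kB subunit gene Rel by -0.64 (SE 0.11) and the kinase gene Jak1 by -0.60 (SE 0.07), the last lower by all 3 probe sets.

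Of 12 measured mitophagy genes 0 were higher and 3 lower (16.9% higher and 15.6% lower over all genes as deposited). With spike scaling 5 were higher and 1 lower, where 72.7% of all probe set calls were higher. Pink1, the gene of a kinase that marks damaged mitochondria, read 10.97, 10.79 and 10.91 in the 3 controls and 10.27, 10.31 and 9.93 in the 3 USP7-titled samples (change -0.72, SE 0.10). The adaptor gene Tax1bp1 was lower by 1 of 3 probe sets (-0.29), a call lost without control replicate 1 (-0.28, limma adjusted p = 0.0526) or control replicate 3 (-0.24, limma adjusted p = 0.0547). Becn1, whose protein Beclin 1 binds Bcl-2, was lower by 1 of 4 (-0.28, limma adjusted p = 0.0476). That call was lost without control replicate 1 (-0.25), control replicate 2 (-0.25), USP7-titled replicate 1 (-0.30) or USP7-titled replicate 2 (-0.20), with limma adjusted p from 0.0705 to 0.166. It was also lost with centring on array medians (limma adjusted p = 0.0566), eBayes without trend (0.0889), the replicate number as a block (0.0709) and the mean of its probe sets (-0.09, limma adjusted p = 0.542). Tax1bp1 as the mean of its probe sets was at -0.07 (limma adjusted p = 0.621), and under spike scaling neither gene passed.

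Of 14 genes of the outer mitochondrial membrane and of mitochondrial shape 6 were higher and 2 lower (16.9% higher and 15.6% lower over all genes as deposited). With spike scaling 7 were higher and 0 lower, where 72.7% of all probe set calls were higher. Vdac3, the gene of an outer membrane channel, read 10.48, 10.35 and 10.42 in the 3 controls and 10.94, 10.89 and 11.04 in the 3 USP7-titled samples (change 0.54, SE 0.07). Mff, the gene of a receptor for the fission machinery, was higher by 1 of 3 probe sets (0.36), though its groups overlapped, and the call was lost without control replicate 1 (0.32), control replicate 2 (0.28), USP7-titled replicate 2 (0.25) or USP7-titled replicate 3 (0.38), with limma adjusted p from 0.0705 to 0.153. It was also lost with quantile normalization (limma adjusted p = 0.0702), eBayes without trend (0.103) and the mean of its probe sets (0.22, limma adjusted p = 0.184). The fusion gene Opa1 was lower by both probe sets (-0.34 and -0.52), the first losing its call without control replicate 1 (-0.29), control replicate 2 (-0.32), USP7-titled replicate 1 (-0.30) or USP7-titled replicate 3 (-0.31), with limma adjusted p from 0.0872 to 0.133. The fission gene Dnm1l was lower by 2 of 4 probe sets (-0.33 by the brightest), a call lost without control replicate 1 (-0.29, limma adjusted p = 0.0517). Opa1 and Dnm1l did not pass under spike scaling.

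**Figure D4:**
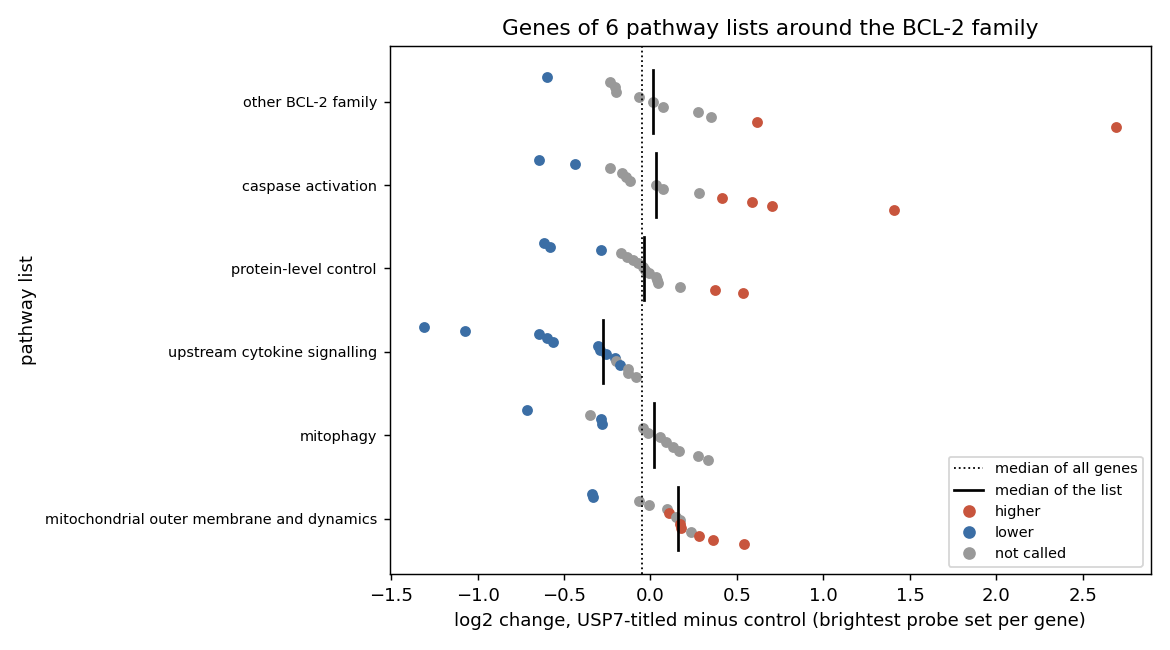
Log2 change, USP7-titled minus control, of the brightest probe set of each gene (horizontal axis) in 6 pathway lists (vertical axis), red where called higher, blue where called lower and grey where not called, with a bar at each list's median and a dotted line at the median of all genes. The point farthest to the right is Pmaip1 at 2.69, and the cytokine signalling list has no red point.

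For members whose brightest probe set passed, the genes with the most similar profile were sought among 6189 genes brighter than the median gene, by the root mean square difference of values centred on the control mean over the 6 arrays. Nearest to Bcl2 were Il6ra, an interleukin 6 receptor gene (difference 0.0476 on the log2 scale, change -0.90), and Plekha1 (0.0537 on the log2 scale, change -0.90). Nearest to Bak1 were Ebp, a sterol isomerase gene (0.0823 on the log2 scale, change 0.86), and Rpa2, the gene of a single-stranded DNA binding subunit (0.0834 on the log2 scale). Nearest to Bad were Cebpa, a myeloid transcription factor gene (0.0607 on the log2 scale, change 0.86), and Casp1, the inflammatory caspase gene (0.0635 on the log2 scale, change 0.90). Myeloid markers rose in the same samples as Bad, and their part in its rise was not tested. For Mcl1 the nearest were Fam98a (0.0262) and Tnrc6b (0.0291), for Bcl2l11 Pbx2 (0.0912) and Elmo3 (0.0983), for Bid Mfsd14b (0.0443) and Rab28 (0.0586), and for Bik Fnbp1 (0.0653) and Zfp1 (0.1001). Over 6 arrays in 2 groups this likeness is mainly a likeness of the change between the groups.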

How the data were processed

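Expression was measured on 6 single-channel biotin-labelled arrays, 3 control and 3 USP7-titled, from 100 ng of total RNA each, per the labels' protocols. The authors deposited log2 expression per probe set; the log base was read from the values, 2.21 to 14.5. How probes were summarised and normalized is not given in the sources used here. Array medians were 7.91 to 7.96 and nothing further was applied.

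Of 22690 probe sets 64 array controls were left out. The platform annotation gave 20380 a single symbol, 691 several and 1555 none. All 22626 were fitted with limma 3.58.1 in R 4.3.3 (lmFit, eBayes with trend, two-sided, Benjamini-Hochberg over all, threshold 0.05). The fit was tested on simulated data with 200 changed probe sets, far fewer than were called here. It recovered 23.5% of log2 changes of 0.5, 74.2% of those of 1 and 97.0% of those of 2. Of its 133 calls 4 were false. Small changes could thus be missed. Groups came from the titles. Members, lists and motifs were chosen with earlier results of these data known. All members are named, from each list up to 4 called genes with the largest change, and for each called member the 2 nearest profiles. Same-numbered arrays did not deviate together (r = 0.069, -0.0507 and 0.0885). Having 3 arrays per group limits the precision.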

Additional observations from a re-analysis of the deposited data

How the results depend on the processing

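Alternatives were quantile normalization, centring, spike scaling, leaving out the 40% dimmest probe sets, 1 probe set or the mean of probe sets per gene, eBayes without trend or robust, array weights, a replicate block, thresholds of 0.01 and 0.1, leaving out genes on X and Y, and leaving out each array. The filters, the eBayes variants, the replicate block, the thresholds and 1 probe set per gene leave the change itself as it was. Under these settings a change of direction was not possible, and a threshold of 0.1 could not lose a call. Of 436 recomputed member changes, these settings included, 397 kept direction and side of the threshold, 28 lost the call, 6 gained one and 5 changed sign. The last are all of Bcl2l1: its brightest probe set was at 0.0536 under spike scaling and 0.0853 as the mean of its probe sets, and its dimmest at 0.0643 under spike scaling and between -0.20 and 0.0700 with 1 array left out, positive without control replicate 1 or USP7-titled replicate 3. None of these passed, and the cause was not tested. Leaving out 1 array gave 4 to 6 member probe sets higher and 11 to 13 lower. The share over all probe sets is given here only as deposited, 16.2% higher and 17.1% lower. By gene, leaving out 1 array gave 2 to 3 members higher and 3 to 4 lower, with 3 lower without control replicate 1. Under spike scaling 3 member genes were higher and 3 lower. With the replicate number as a block 6 member probe sets were higher and 13 lower. The numbers do not pair the samples, and the block gave 14 pathway genes higher and 20 lower. Pathway genes higher were 22 under spike scaling, where 72.7% of all probe set calls were higher, and 9 at a threshold of 0.01, which is stricter by construction. Pathway genes lower were 10 under spike scaling and 13 to 20 with 1 array left out, lowest without control replicate 1. Dim probe sets, such as those of Bik, limit what can be measured.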
